A study of Homo sapiens with 6 samples.

Results

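The genes described here are those of WNT signalling, 60 protein-coding genes among the 58735 genes of the table. They were chosen by symbol: the WNT ligands, the FZD, LRP5, LRP6, ROR1, ROR2 and RYK receptors, the RSPO, LGR4, LGR5, RNF43 and ZNRF3 genes, the SFRP, FRZB, WIF1 and DKK antagonists, AXIN1, AXIN2, CTNNB1 and NKD1, and the LEF1 and TCF7 factors. The samples were UE7T-9 cells, a human mesenchymal stem cell line grown in DMEM. There were 3 libraries of wild type cells, called Control, and 3 of cells in which SRRM4, a splicing factor, had been knocked out with lentiviral CRISPR v2, called SRRM4 KO. The KO line came from 1 clone raised by limiting dilution, and the study describes its knockout as partial, so clone and knockout cannot be told apart here. No cloning of the control cells is described, and nothing in the labels says whether the control cells carried a vector, or whether the 3 libraries of a group came from separate cultures. P-values therefore measure the spread between libraries, which may be technical.

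WNT proteins are secreted lipid-modified ligands that bind frizzled receptors. With the co-receptors LRP5 and LRP6 they stabilise β-catenin, which enters the nucleus and acts with TCF and LEF factors on target genes. With ROR receptors they act through β-catenin-independent routes on cell polarity and movement. SFRP, FRZB and WIF1 proteins bind the ligands, DKK proteins act on the co-receptors, and R-spondins strengthen the signal by holding back the ubiquitin ligases RNF43 and ZNRF3. In mesenchymal stromal cells the pathway is known for its part in bone and cartilage differentiation.

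The libraries held between 21496117 and 23868323 counts, and an observed 0 leaves room for a level of 3 counts, or 0.123 to 0.139 CPM (counts normalised for depth and library composition by TMM). That limit covers counting error only. SRRM4 had 0 counts in all 6 libraries and gives no check of the knockout. Control 1 had counts in 22403 genes, against 20127 to 20674 in the other libraries, and differed more from the other control libraries (chi-square per degree of freedom 20.9 and 21.4) than any other pair within a group did (4.93 to 9.13). Of 5 mesenchymal markers all were detected, with summed TPM of 1883 to 1980 in control and 1759 to 1868 in KO libraries, but THY1 and PDGFRB were called lower in the KO libraries (log2 fold changes of -2.43 and -2.14). NT5E (0.52) and VIM (0.36) were higher and ENG (-0.34) lower by the adjusted p alone. PTPRC, PECAM1, CDH5 and EPCAM, which define blood, endothelial and epithelial cells, had at most 3 counts in any library. CD14, CD34, VWF, CDH1, KRT8 and KRT18 were detected, and the summed TPM of the 4 epithelial markers was 125 to 142 in control and 134 to 136 in KO libraries, although KRT8 was lower by the adjusted p alone (-0.59). That of the 3 blood markers was 38.6 to 44.8 and 37.3 to 42.2, and that of the 3 endothelial markers at most 0.938. What part these markers have in the results was not tested.

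Of the 60 WNT genes, 35 had enough counts to be tested, 10 had no count in any library, and 15 had between 1 and 27 counts at most. Called genes are those with an adjusted p under 0.05 in the edgeR quasi-likelihood test, corrected after Benjamini and Hochberg over 15341 genes, and a log2 fold change (KO over control) beyond 1. WNT5B was called higher, and ROR2, RSPO3, WNT9A, LGR5, FZD4 and TCF7L1 were called lower. These 7 genes were 20% of the 35 tested, beside 12.6% of all tested genes. The single higher gene stands against a background of 5.45% and the 6 lower genes against 7.14%. By the adjusted p alone, 7 WNT genes were higher and 13 lower, or 57.1%, where 41.6% of all genes passed. Control and KO libraries were fully apart for 23 of the 35 genes, or 65.7%, and for 51.8% of all genes. The median log2 fold change of the 35 was -0.01, as for all genes, and the median size without sign was 0.54 against 0.35. ROR2, RSPO3 and WNT9A had fewer than 10 counts in at least 1 library and passed the filter on low counts through the control group, so these counts and medians are descriptions of the genes that passed.

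**Figure D1:**
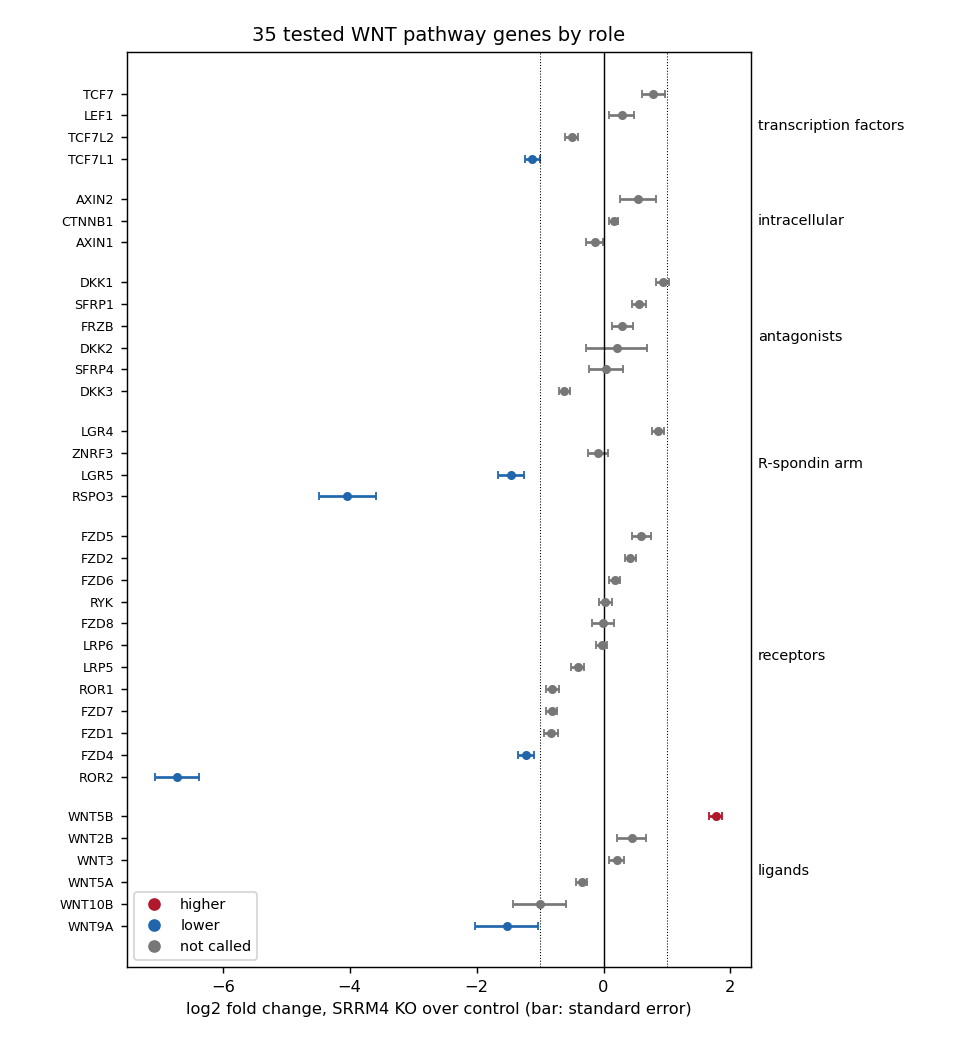
Log2 fold change (KO over control) of the 35 tested WNT genes, grouped by role, with points for the fitted value and bars for its standard error (3 libraries a group). WNT5B (1.77) lies farthest to the right and ROR2 (-6.72) and RSPO3 (-4.04) farthest to the left, and most other genes lie within the dotted lines at a log2 fold change of 1 in either direction.

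**Figure D2:**
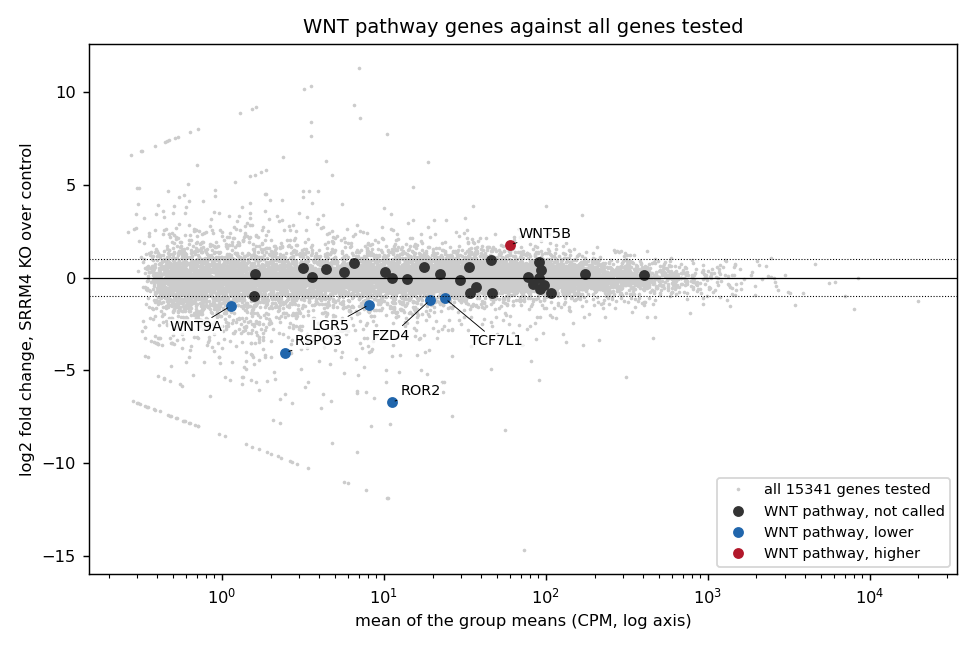
Log2 fold change (KO over control) against mean level (CPM, log axis) for all 15341 tested genes in grey and the WNT genes in black or, where called, in colour with their names. ROR2 (-6.72) and RSPO3 (-4.04) lie well below the other WNT genes, and WNT5B (1.77) lies above them.

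The stretch before the start of ROR2, RSPO3 and WNT5B is shown because these 3 genes had the largest changes in the group, and that of DKK1 because it held the TCF/LEF letters. The sequences are from RefSeq (GRCh38.p14), 5′ to 3′ on the strand of the gene, and any bases that overlap an annotated exon of the same gene were left off. WNT5B had 2 RefSeq windows, of which the one farther along the gene is shown.
ROR2, chr9:91950229-91950478, minus strand: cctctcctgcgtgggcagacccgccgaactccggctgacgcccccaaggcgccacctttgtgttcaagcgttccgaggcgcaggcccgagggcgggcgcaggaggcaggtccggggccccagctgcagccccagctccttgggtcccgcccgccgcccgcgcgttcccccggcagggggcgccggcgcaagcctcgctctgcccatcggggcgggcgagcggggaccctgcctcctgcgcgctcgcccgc
RSPO3, chr6:127118421-127118603, plus strand: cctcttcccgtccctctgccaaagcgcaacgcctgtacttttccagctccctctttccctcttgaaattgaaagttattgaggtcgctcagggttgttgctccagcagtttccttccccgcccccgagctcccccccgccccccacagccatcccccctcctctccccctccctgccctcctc
WNT5B, chr12:1628981-1629196, plus strand: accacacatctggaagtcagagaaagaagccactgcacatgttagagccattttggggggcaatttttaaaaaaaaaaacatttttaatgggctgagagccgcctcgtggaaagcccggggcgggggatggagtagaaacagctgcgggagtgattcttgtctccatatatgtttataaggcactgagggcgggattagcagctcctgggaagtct
DKK1, chr10:52314031-52314280, plus strand, with the TCF/LEF letters in capitals: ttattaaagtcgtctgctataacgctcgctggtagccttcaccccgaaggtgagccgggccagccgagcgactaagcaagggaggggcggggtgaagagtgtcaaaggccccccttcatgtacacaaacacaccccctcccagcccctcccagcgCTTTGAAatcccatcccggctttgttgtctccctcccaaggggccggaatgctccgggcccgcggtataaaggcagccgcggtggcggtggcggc
The motif searched was CTTTGAA or CTTTGAT on either strand within the 250 bases before each start. RefSeq windows were found for 42 of the 60 genes, and LGR5 had no entry. DKK1 alone held the motif, with its first base 95 bases before the start. It was in 2.04% of the 49 windows of WNT genes and in 5.94% of all 35116 windows. None of the 6 called genes with a window held it, which says only that these letters are not in these stretches. The windows of WNT genes were rich in G and C, with a median of 69.2% against 58.0% for all windows.

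Of the 19 WNT ligands 6 were tested, and the ligand message of these cells was mostly that of WNT5A, WNT5B and WNT3. WNT5B, a ligand tied mainly to β-catenin-independent signalling, lies on chromosome 12 from 1529891 to 1647243 (GRCh38, plus strand). Control libraries held 533, 672 and 578 of its counts and KO libraries 2075, 2278 and 2016. Every KO library lay far above every control library. In such bulk RNA a change in the share of cells that express a gene and a change in RNA per cell cannot be told apart. Mean CPM was 27.2 ± 3.49 in control and 92.8 ± 1.01 in KO libraries (SD, n = 3), a 3.41-fold rise. The log2 fold change was 1.77 (SE 0.10, adjusted p = 4.49e-09, edgeR quasi-likelihood test). FBXL14, on the opposite strand, overlaps WNT5B and had at most 310 counts, and without strand the reads of such pairs cannot be told apart.

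WNT5A, the close relative of WNT5B, had 2100, 1890 and 2115 counts in control and 1574, 1869 and 1595 in KO libraries. The groups lay side by side without overlap. Its log2 fold change of -0.35 (SE 0.09) passed the adjusted p but not the fold threshold (adjusted p = 0.00474, edgeR quasi-likelihood test). Levels of different genes are compared here as TPM, which divides by gene length. In control WNT5A was the leading ligand at 56.9 ± 4.27 TPM (SD, n = 3), ahead of WNT5B at 28.5 ± 3.15 and WNT3 at 21.4 ± 1.47. In the KO libraries WNT5B led at 97.2 ± 0.109 TPM (SD, n = 3), and WNT5A followed at 44.7 ± 1.79 and WNT3 at 24.7 ± 1.09. The ratio of WNT5B to WNT5A in TPM was 0.436, 0.611 and 0.470 in the control libraries and 2.27, 2.09 and 2.17 in the KO libraries. Thus the order of these ligands was opposite in the groups, in every library. WNT5B made up 24.8% ± 2.43 of the summed ligand TPM in control and 56.7% ± 1.11 in the KO libraries (SD, n = 3). That sum went from 115 ± 1.66 to 172 ± 3.54 TPM (SD, n = 3).

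WNT9A, a ligand known from joint formation, was scarce. It lies on chromosome 1 from 227918656 to 227947898 (minus strand) and had 21, 33 and 57 counts in control and 8, 16 and 16 in KO libraries. The groups did not overlap, but the lowest control count stood close to the highest KO counts. Its CPM averaged 1.68 ± 0.804 in control and 0.581 ± 0.195 in KO libraries (SD, n = 3). Its log2 fold change of -1.53 (SE 0.50) was called (adjusted p = 0.0226, edgeR quasi-likelihood test). The call rests on 2 libraries: without Control 3 the adjusted p was 0.159 and the log2 fold change -1.10, and without SRRM4 KO 1 they were 0.0852 and -1.29 by the same edgeR test. WNT10B overlapped between the groups, at 28, 52 and 59 counts in control and 16, 26 and 30 in KO libraries. It had a log2 fold change of -1.01 and missed the threshold (adjusted p = 0.0637, edgeR quasi-likelihood test), but was called without Control 1 (-1.27, adjusted p = 0.023). WNT3 (log2 fold change 0.21) and WNT2B (0.44) did not pass either. Of the ligands not tested, WNT11 reached 11 counts in a library, WNT16 7, WNT1 and WNT4 4, WNT6 and WNT7B 3, WNT8B 2 and WNT2 1. WNT3A, WNT7A, WNT8A, WNT9B and WNT10A had no count.

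**Figure D3:**
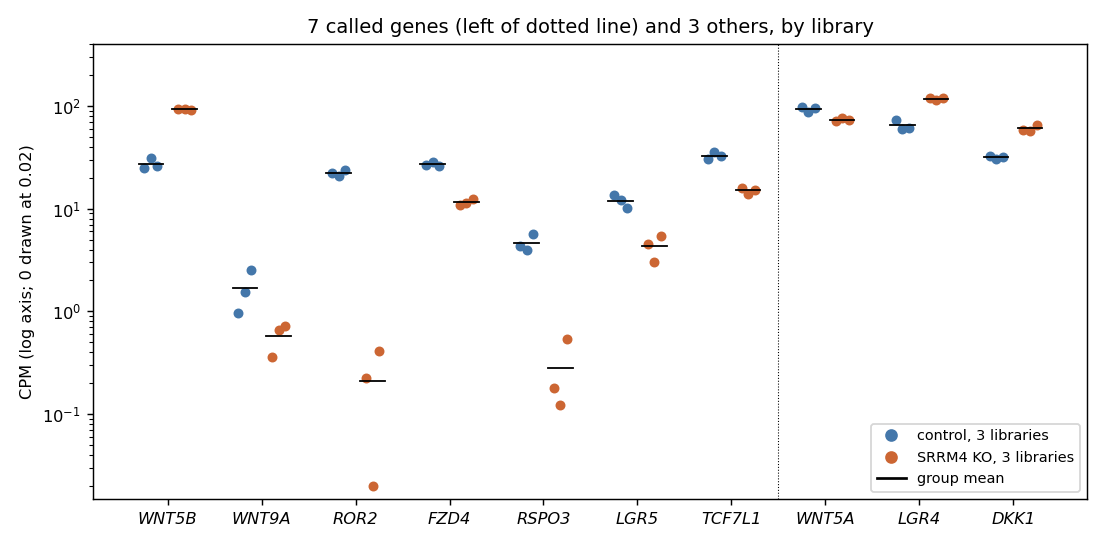
Level in CPM (log axis) of the 7 called WNT genes and, right of the dotted line, of WNT5A, LGR4 and DKK1, with 1 point per library and a bar for the mean of the 3 libraries. WNT5B stands higher in every KO library and the other 6 called genes lower, and the KO library with 0 counts of ROR2 is drawn at 0.02.

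ROR2 was the WNT gene with the largest difference. It encodes a receptor tyrosine kinase that binds WNT5A and is known from skeletal development, and lies on chromosome 9 from 91563091 to 91950162 (minus strand). The control libraries held 483, 444 and 526 ROR2 counts and the KO libraries 5, 0 and 9. The message was well above the detection limit in control and close to it in the KO libraries. This was 22.1 ± 1.49 CPM in control and 0.211 ± 0.205 CPM in the KO libraries (SD, n = 3), a 105-fold fall. The log2 fold change was -6.72 (SE 0.35, adjusted p = 1.01e-09, edgeR quasi-likelihood test). Since the KO counts were so few, the value depended on single libraries, at -7.62 without SRRM4 KO 3 and -6.11 without SRRM4 KO 2, and it was called in both. The 20 tested genes nearest to ROR2, looked at after its value was known, stood at a median of -0.46 on the log2 scale, and 2 were called higher and 4 lower. Over the tested WNT genes such medians ran from -0.67 around FZD5 to 0.69 around AXIN2, with -0.32 around RSPO3 and -0.02 around WNT5B.

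ROR1, the relative of ROR2, kept a clear level. Its counts were 979, 902 and 949 in control and 566, 635 and 498 in KO libraries. Its groups did not overlap. The log2 fold change of -0.81 (SE 0.11) passed the adjusted p alone (adjusted p = 1.98e-05, edgeR quasi-likelihood test). In TPM, ROR1 was 1.76, 1.76 and 1.56 times as high as ROR2 in the control libraries. In the KO libraries it was 98.1 and 47.9 times as high in SRRM4 KO 1 and 3, and SRRM4 KO 2 had no ROR2 count to divide by.

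FZD4 was the only frizzled gene called. It encodes a receptor for WNT proteins and for norrin and lies on chromosome 11 from 86945679 to 86955391 (minus strand). Counts were 578, 609 and 575 in control and 244, 276 and 273 in KO libraries. All KO libraries lay below all control libraries. In CPM these were 26.9 ± 1.26 and 11.6 ± 0.754 (SD, n = 3). The log2 fold change was -1.22 (SE 0.12, adjusted p = 1.48e-06, edgeR quasi-likelihood test). FZD4 overlaps PRSS23 on the other strand, which had up to 12089 counts and a log2 fold change of 0.01.

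The other tested frizzleds had smaller fold changes, in both directions. FZD7 had 2882, 3092 and 3030 counts in control and 1650, 2008 and 1698 in KO libraries, a log2 fold change of -0.82 (SE 0.08). FZD1 stood at -0.83, FZD2 at 0.42 and FZD5 at 0.60, and all of these passed the adjusted p alone. FZD6 (0.17) and FZD8 (-0.01) did not pass, although FZD6 did without Control 1 (0.27). In control FZD6, FZD2 and FZD7 were at similar levels, 184 ± 26.0, 170 ± 9.28 and 161 ± 4.43 TPM (SD, n = 3), and their libraries overlapped between neighbours in that order. In the KO libraries FZD2 led at 229 ± 3.09 TPM (SD, n = 3), FZD6 followed at 207 ± 8.60 and FZD7 stood at 91.1 ± 4.77, with no overlap between them. By CPM, without length, FZD6 led in both groups. The ratio of FZD2 to FZD7 in TPM was 0.997, 1.08 and 1.10 in control and 2.69, 2.36 and 2.50 in KO libraries. The summed TPM of the 10 frizzled genes was 592 ± 13.7 in control and 583 ± 7.41 in KO libraries (SD, n = 3), so that the ranges overlapped while the shares shifted. FZD7 made up 27.1% of that sum in control and 15.6% in the KO libraries, and FZD2 28.8% and 39.2%.

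**Figure D4:**
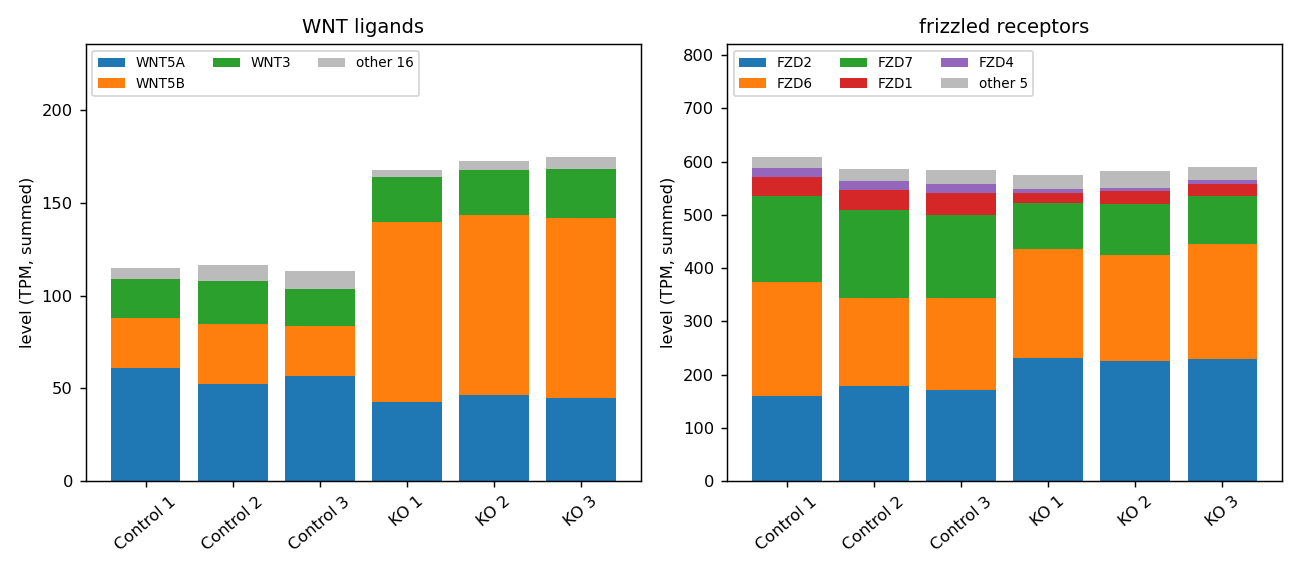
Summed level in TPM of the 19 WNT ligands (left) and the 10 frizzled receptors (right), as 1 stacked bar for each of the 3 control and 3 KO libraries, with the lesser genes joined in grey. The WNT5B segment grows from a mean of 28.5 to 97.2 TPM and the ligand bars with it, whereas the frizzled bars stay near the same height while the FZD7 segment shrinks from 161 to 91.1 TPM.

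Of the co-receptors, LRP5 had a log2 fold change of -0.41 and passed the adjusted p alone, whereas LRP6 (-0.03) and RYK (0.03), another WNT-binding receptor, stayed near 0. In total 2 of the 12 tested receptors were called lower and 0 higher, or 16.7% beside 12.6% of all genes. By the adjusted p alone 2 were higher and 6 lower, or 66.7% beside 41.6%. FZD3 reached 27 counts and FZD9 10 and were not tested, and FZD10 had no count.

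In the R-spondin arm, the ligand RSPO3 and the receptor LGR5 were lower while the receptor LGR4 was higher. RSPO3, a secreted amplifier of WNT signalling, lies on chromosome 6 from 127118604 to 127197765 (plus strand). Its counts were 93, 86 and 127 in control and 4, 3 and 12 in KO libraries. The highest KO library was far below the lowest control library. CPM averaged 4.66 ± 0.908 in control and 0.283 ± 0.229 in KO libraries (SD, n = 3), a 16.4-fold fall. Its log2 fold change was -4.04 (SE 0.44, adjusted p = 3.24e-06, edgeR quasi-likelihood test), and was -4.91 without SRRM4 KO 3 and -3.67 without SRRM4 KO 2. RSPO2 had at most 5 counts and RSPO1 1, and RSPO4 had none, so RSPO3 was the only R-spondin gene tested.

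LGR5, an R-spondin receptor and a well-known stem cell marker of epithelia, lies on chromosome 12 from 71439770 to 71586310 (plus strand). Its counts were 296, 259 and 224 in control and 102, 74 and 119 in KO libraries. The groups were well apart. Mean levels were 11.9 ± 1.81 and 4.34 ± 1.20 CPM (SD, n = 3). The log2 fold change of LGR5 was -1.46 (SE 0.21, adjusted p = 5.12e-05, edgeR quasi-likelihood test). LGR4, the more abundant R-spondin receptor, had 1564, 1289 and 1372 counts in control and 2646, 2760 and 2633 in KO libraries. Here the KO libraries were the higher ones, with a log2 fold change of 0.86 (SE 0.09) that passed the adjusted p alone (adjusted p = 2.74e-06, edgeR quasi-likelihood test). The ratio of LGR4 to LGR5 in TPM was 4.38, 4.12 and 5.07 in control and 21.5, 30.9 and 18.3 in KO libraries. ZNRF3, the ubiquitin ligase that removes frizzled receptors, was level at a log2 fold change of -0.08 and did not pass. RNF43 had no count, and neither had SUPT4H1, a gene of general transcription that overlaps it on the same strand, so its 0 cannot be read as absence.

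Of the 6 tested antagonists 0 were called, beside 12.6% of all genes, and 3 passed the adjusted p alone, or 50% beside 41.6%. The order of DKK1 and DKK3 by TPM differed between the groups. DKK1, which blocks LRP6, had 711, 653 and 709 counts in control and 1304, 1380 and 1442 in KO libraries. All KO libraries were higher. The log2 fold change of 0.93 (SE 0.10) lay just under the fold threshold (adjusted p = 2.45e-06, edgeR quasi-likelihood test). DKK3, a divergent member of the family, had 2412, 2402 and 2526 counts in control and 1655, 1807 and 1555 in KO libraries. It was lower in every KO library, at a log2 fold change of -0.62 (SE 0.08, adjusted p = 2.22e-05, same edgeR test). In control DKK3 was the leading antagonist, at 99.9 ± 2.53 TPM against 64.8 ± 4.30 for DKK1 (SD, n = 3). In the KO libraries DKK1 led at 123 ± 11.0 TPM against 65.2 ± 1.11 for DKK3 (SD, n = 3), although DKK3 still led by CPM, without length. SFRP1, which binds WNT proteins, was higher at a log2 fold change of 0.56 and passed the adjusted p alone. FRZB (0.30), SFRP4 (0.03) and DKK2 (0.21) did not pass. SFRP2 reached 10 counts, SFRP5 6 and WIF1 1, and DKK4 had no count.

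CTNNB1, which encodes β-catenin, was the most abundant intracellular gene. It reached 8681, 8053 and 8410 counts in control and 9312, 10456 and 9672 in KO libraries. The groups did not overlap, but the log2 fold change of 0.16 (SE 0.07) did not pass the adjusted p, except without Control 1 (0.19, edgeR adjusted p = 0.00799). AXIN1, a scaffold of the complex that degrades β-catenin, stood at -0.14 and did not pass. AXIN2, its relative and a widely used target of β-catenin signalling, had 76, 48 and 45 counts in control and 99, 83 and 76 in KO libraries. The groups overlapped, with Control 1 above SRRM4 KO 2 and SRRM4 KO 3 in CPM, and the log2 fold change of 0.54 (SE 0.28) did not pass (adjusted p = 0.139, edgeR quasi-likelihood test). Without Control 1 it was 0.83 and passed the adjusted p alone (adjusted p = 0.0359, same edgeR test). The 20 tested genes nearest to AXIN2 on chromosome 17 stood at a median of 0.69 on the log2 scale. AC004805.1, a protein-coding gene that overlaps AXIN2 on the same strand, had 0 counts. Reads shared by both genes may therefore be missing from the AXIN2 counts. NKD1, another target that feeds back on the pathway, had no count.

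Of the 4 transcription factors TCF7L1 was called, or 25% beside 12.6% of all genes. It acts mainly as a repressor of WNT targets and lies on chromosome 2 from 85133410 to 85310388 (plus strand). Counts were 656, 769 and 720 in control and 357, 337 and 336 in KO libraries. No KO library came near a control library. They correspond to 32.7 ± 2.74 and 15.0 ± 1.11 CPM (SD, n = 3), and the log2 fold change was -1.12 (SE 0.12, adjusted p = 2.82e-06, edgeR quasi-likelihood test). The median gene of chromosome 2 stood at -0.25, and with each chromosome centred on its median TCF7L1 was at -0.88, past the adjusted p but under the fold threshold. TCF7L2 was lower as well (-0.50) and TCF7 higher (0.79), both past the adjusted p alone, while LEF1 (0.29) did not pass. TCF7 overlaps SKP1, on the opposite strand, which had up to 5105 counts. The ratio of TCF7L2 to TCF7L1 in TPM was 1.02, 0.750 and 0.848 in control and 1.32, 1.44 and 1.24 in KO libraries. The summed TPM of the factors was 68.9 ± 2.53 in control and 44.8 ± 1.78 in KO libraries (SD, n = 3).

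The rest of the pathway was read from a list of 55 genes, of which 47 were tested. Of these 0 were called higher, beside 5.45% of all genes. The 7 called lower were 14.9%, beside 7.14% of all genes called lower and 12.6% called in either direction. APCDD1 and TLE2 passed the filter through the control group, and with at least 10 counts in each library 5 genes were lower. By the adjusted p alone 14 were higher and 12 lower, or 55.3% beside 41.6% of all genes. APCDD1, a membrane inhibitor of WNT signalling, had 132, 160 and 127 counts in control and 1, 3 and 3 in KO libraries. Over the summed counts this was a 62.7-fold fall (95% exact interval 30.2 to 157, for counting error only). DACT1 and DACT3, which bind the signalling protein dishevelled, had log2 fold changes of -1.91 and -1.90. The glypican GPC6 stood at -1.24, and was called neither with chromosomes centred (-0.97) nor by glmTreat, and the polarity genes PRICKLE1 and DAAM2 at -1.40 and -1.33. TLE2, a co-repressor, had 28, 24 and 31 counts in control and 2, 0 and 7 in KO libraries. It was lower throughout, at a log2 fold change of -3.20, though the value was -4.71 without SRRM4 KO 3 and -2.61 without SRRM4 KO 2. The list's most abundant genes by mean TPM were WLS, which carries WNT proteins to the surface (log2 fold change 0.28), the co-receptor PTK7 (0.55) and TNKS2 (0.02), a tankyrase. KREMEN2, a DKK1 receptor, did not pass, at counts of 20, 5 and 18 in control and 31, 44 and 28 in KO libraries, but was called higher with chromosomes centred.

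Of 16 textbook target genes outside the chosen symbols, 15 were tested, with 3 called higher and 3 lower, or 40% beside 12.6% of all genes. By the adjusted p alone 7 were higher and 6 lower, or 86.7% beside 41.6%. CCND1 (cyclin D1) had 2959, 2837 and 3214 counts in control and 8493, 9600 and 8558 in KO libraries. It was higher in every KO library, at a log2 fold change of 1.50 (SE 0.08, adjusted p = 8.74e-10, edgeR quasi-likelihood test). CD44, the hyaluronan receptor, had a log2 fold change of 1.39 (SE 0.07). TIAM1, an activator of Rac, had 1.05, under the fold threshold without Control 2 (0.97), without SRRM4 KO 1 (0.99) and with chromosomes centred (0.97), and not called by glmTreat. In contrast, WISP1 went from 335, 427 and 292 counts in control to 63, 38 and 23 in KO libraries, and WISP2 from 150, 119 and 195 to 10, 23 and 10. Both encode secreted matricellular proteins, and their log2 fold changes were -3.15 and -3.49. TNFRSF19, a receptor of the tumour necrosis factor family, stood at -1.58. FOSL1, after CCND1 the most abundant target by mean TPM, was at 0.98, and was called without Control 2 (1.02) or without Control 3 (1.06). PLAUR (0.95) was also called without Control 3. On the lower side, TWIST1 (-0.98) was called under 4 alternatives, such as without Control 1 (-1.12), and JAG1 (-0.89) with chromosomes centred (-1.04). RUNX2 (0.61) and PPARD (0.27) were higher and BAMBI (-0.67) lower, past the adjusted p alone. MYC (0.08) and SP5 (0.77, at 7 to 19 counts) did not pass, and MMP7, with at most 1 count, was not tested. Of the targets among the 60 symbols, LGR5 was called lower, DKK1 and TCF7 were higher by the adjusted p alone, and AXIN2, LEF1 and ZNRF3 were not past it. These lists were read by their counts only, and what moved the targets was not tested.

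**Figure D5:**
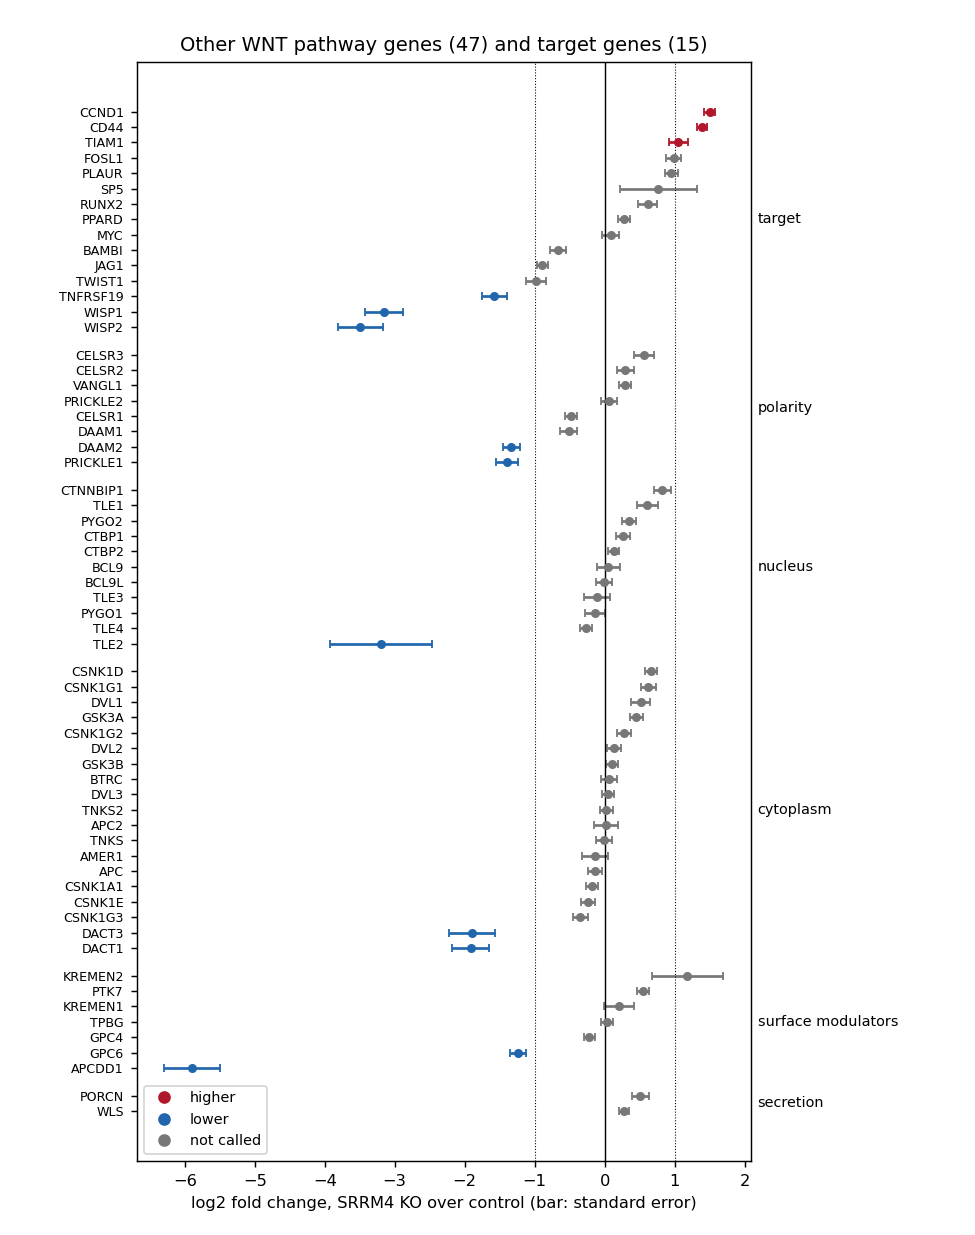
Log2 fold change (KO over control) of the tested genes of the pathway list and of the target list, with points for the fitted value and bars for its standard error. APCDD1, TLE2, WISP2 and WISP1 lie farthest to the left and CCND1 (1.50) and CD44 (1.39) farthest to the right among the called genes, and the fitted point of APCDD1 rests on KO libraries of 3 counts or fewer.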

How the data were processed

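RNA of UE7T-9 control and SRRM4 KO cells was measured by non-stranded mRNA-seq, 3 libraries a group, grouped by title and genotype. The authors deposited raw read counts per gene without normalization. The submitters' processing notes name HISAT2 2.0.5, featureCounts 1.5.0-p3 and DESeq2. The build and the handling of reads shared by genes are not given in the sources used here. Coordinates matched GENCODE release 29 (GRCh38) for all 60 genes.

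Counts were fitted with edgeR 4.0.16 (R 4.3.3; TMM, filterByExpr, prior count 0.125, quasi-likelihood test, Benjamini-Hochberg adjustment over 15341 genes). SE is the log2 fold change over the root of F. TPM used the deposited gene lengths. Named were all called genes, the other genes of each role in brief, and, of the pathway and target lists, called genes and the 3 of highest mean TPM. KREMEN2, the neighbouring genes and the rest of the target list, such as PLAUR, TWIST1 and JAG1, were added after their values were seen. A further blood marker is not reported here. The symbol rule uses no measured value, but the genes and lists were chosen with earlier results of these data known.

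Alternatives were RLE and upper-quartile scaling, a count minimum of 10 per library or no filter, a replicate block, each library left out, DESeq2 1.42.0, glmTreat, no fold threshold, protein-coding genes only, chromosome centring, and CPM for TPM. Counts were also simulated for the KO and control comparison over 15341 genes. Of 192 tested genes changed by 2 on the log2 scale, 182 were recovered, with 0 false calls. These counts were drawn from the fitted model with all other genes unchanged, so false calls past the fold threshold were unlikely from the start. Recovery of changes smaller than 2 was not tested. No pair of libraries in a group agreed within sampling noise.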

Additional observations from a re-analysis of the deposited data

How the results depend on the processing

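The WNT genes called, 1 higher and 6 lower, were the same in number with RLE or upper-quartile scaling, without a filter, with DESeq2 and among protein-coding genes. With each library left out, 5 to 7 were lower and 1 higher, beside 1029 to 1162 and 791 to 875 of all genes. At least 10 counts in every library left 32 WNT genes tested, with 1 higher and 4 lower, beside 624 higher and 765 lower of all genes. Here ROR2, RSPO3 and WNT9A could not be tested and WNT10B was added. As the tested set differs under this minimum, these counts cannot be set against the main shares. Chromosome centring left 5, beside 777 and 1031 of all genes. Tested against the fold threshold itself (glmTreat), 2 WNT genes remained lower, RSPO3 and ROR2, beside 360 higher and 577 lower of all genes, with 6 lower in the pathway list, and WNT9A, FZD4, LGR5 and TCF7L1 were not called (adjusted p 0.556, 0.18, 0.0853 and 0.582). Without a fold threshold, 7 WNT genes were higher and 13 lower, beside 3171 and 3213 of all genes, 14 and 12 of the pathway list, and 7 and 6 of the targets. The pathway list gained 1 higher gene, KREMEN2, with chromosomes centred. Targets called higher numbered 2 to 5 with a library left out, 5 of them without Control 3. No WNT gene past the adjusted p changed direction under any alternative.

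The replicate block gave the same 1 higher and 6 lower WNT genes in number, 0 and 7 of the pathway list, 3 and 3 of the targets, and 859 higher and 1136 lower of all genes. Libraries of the same number did not deviate together (correlations across genes of -0.05, 0.08 and -0.05). Libraries of unlike number had correlations of -0.11 to 0.16. This shows no sign of pairing by number, but with 3 libraries a group it cannot exclude it. Depth limits the scarce genes: ROR2, RSPO3 and WNT9A rest on few KO counts. The 25 WNT genes not tested had at most 27 counts, and with no filter the nearest to a call was FZD3 (edgeR adjusted p = 0.0716), which had a log2 fold change of -2.89 and an adjusted p of 0.0503 in the filtered fit without SRRM4 KO 2.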
